A study of Danio rerio with 3 samples.

Results

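Transcripts of the heme synthesis pathway and of mitoferrin-1, the carrier that brings iron into mitochondria, were followed in whole zebrafish embryos (Danio rerio, Tuebingen strain) at 24 hours post fertilization. The list named 10 genes, and 9 of them (alas2, hmbsa, hmbsb, uros, urod, cpox, ppox, fech and slc25a37) were found by the symbol column of the deposited table, out of 25961 genes in all. The row of alad carries no symbol there. It was found by its identifier, ENSDARG00000100372, and its description as aminolevulinate dehydratase, so its values are given beside the 9 but are not counted with them. Embryos had been injected at the 1-cell stage with 6 ng or 3 ng of a morpholino against hnrnpaba, or with 3 ng of a standard control morpholino, and RNA of 30 embryos was pooled for each library. A morpholino is an antisense oligomer that pairs with an RNA and blocks its translation or splicing, and hnrnpaba encodes an RNA-binding protein of the hnRNP family. No genotype other than the strain is given. The control dose equals the lower of these masses. Each group is 1 library, so differences lack replicates and are given without p-values, as a description of these 3 pools.

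Heme is made in a chain of steps shared between mitochondrion and cytosol. The first enzyme, 5-aminolevulinate synthase, joins glycine to succinyl-CoA in the mitochondrion. Its erythroid form is encoded by alas2 and its housekeeping form by alas1. Aminolevulinate dehydratase (alad), hydroxymethylbilane synthase (hmbsa and hmbsb), uroporphyrinogen III synthase (uros) and uroporphyrinogen decarboxylase (urod) act in the cytosol. Coproporphyrinogen oxidase (cpox), protoporphyrinogen oxidase (ppox) and ferrochelatase (fech), which inserts the iron, act in the mitochondrion. In vertebrates red cell precursors are the main site of this pathway, because each globin chain carries a heme. Zebrafish mutants that lack red cell color map to several of these genes, among them sauternes (alas2), yquem (urod), montalcino (ppox), dracula (fech) and frascati (slc25a37).

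The 9 genes stood higher in both hnrnpaba morphant libraries than in the control library. By their ratios they were sorted into a group near or above 2-fold and a group near 1.5-fold. alas2, hmbsb, urod, cpox, ppox and fech made up the first group, with ratios of FPKM between 1.92 and 3.03 over both doses. hmbsa, uros and slc25a37 made up the second, with ratios between 1.39 and 1.69, and alad stood with them at 1.47 and 1.40. FPKM counts fragments relative to transcript model length and library size. Ratios carry a 95% exact interval from the recovered fragments, which covers counting error only and leaves out the difference between pools of embryos. By these intervals the groups are not fully parted. At 6 ng those of uros (1.45 to 1.98) and slc25a37 (0.994 to 1.95) overlap that of urod (1.91 to 2.29). At 3 ng that of hmbsa (1.48 to 1.82) overlaps those of urod (1.76 to 2.10), ppox (1.78 to 2.89) and fech (1.81 to 3.06). That of slc25a37 at 3 ng (1.05 to 1.99) overlaps the same intervals and that of cpox (1.87 to 2.32).

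The libraries held 13557636 fragments at 6 ng, 17748075 at 3 ng and 14589056 in the control. The 9 genes took 6399, 8079 and 3265 of these fragments, or 0.0472%, 0.0455% and 0.0224%. Each of the 9 was above 1 FPKM in every library, so none of them entered through a morphant value alone. The transcript of the morpholino's target, hnrnpaba, stood at 342 FPKM at 6 ng, 459 FPKM at 3 ng and 442 FPKM in the control, and as the type of block is not given here this level does not check the labels. The control column is named only as a 24 h control, and was taken as the only control of the series. In bulk RNA, more cells of a type and more RNA per cell cannot be told apart, and this holds for each comparison that follows.

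**Figure D1:**
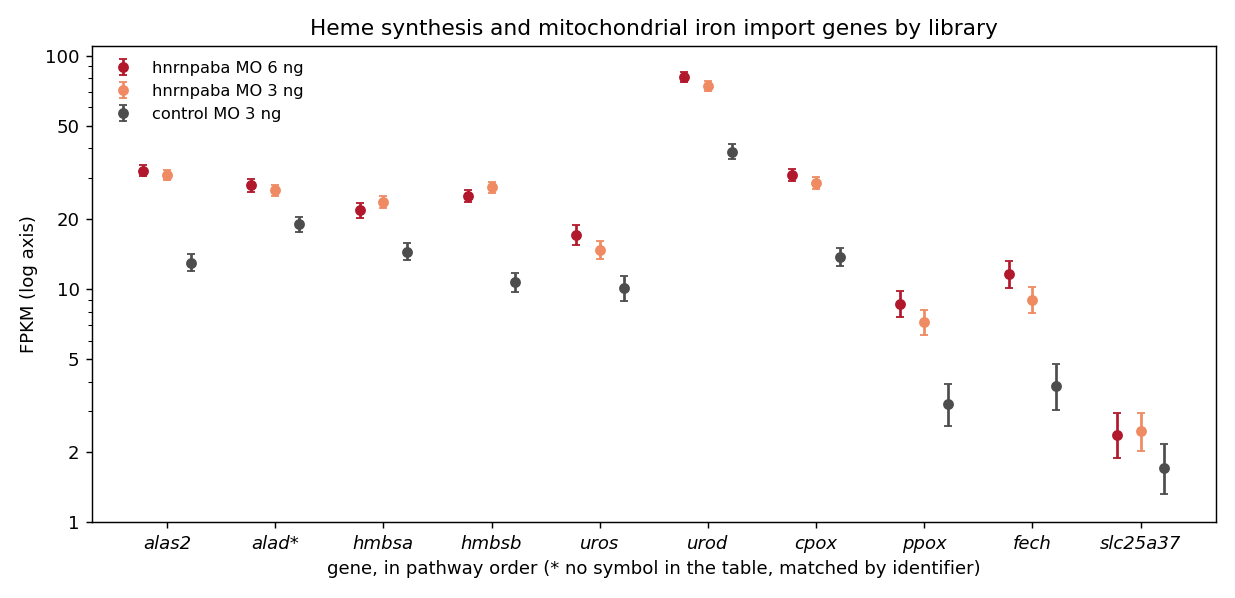
FPKM on a log axis of the 9 genes and alad, in pathway order, in the libraries of 6 ng hnrnpaba morpholino, 3 ng hnrnpaba morpholino and control morpholino. Points are single libraries and bars are 95% exact Poisson intervals of the recovered fragments. For all genes but slc25a37 the control interval lies below both morphant intervals.

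The entry enzyme gene alas2 (ENSDARG00000038643, chromosome 8, 21353878 to 21369028, plus strand) stood at 32.2 FPKM at 6 ng, 30.9 FPKM at 3 ng and 13.0 FPKM in the control. Both morphant libraries were thus high and close to each other. The ratio to the control was 2.48 (2.24 to 2.74) at 6 ng and 2.38 (2.16 to 2.63) at 3 ng. alas2 rested on 1290, 1624 and 560 fragments. Its model overlaps that of ela2l on the other strand, which had 6.92, 7.45 and 2.58 FPKM, or 10.2, 11.5 and 9.46 fragments per 100 of alas2. Since use of strand is not given, reads of the overlap cannot be divided between these genes with certainty.

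alas1, the housekeeping form of the same enzyme, did not share this difference. It stood at 43.7 FPKM at 6 ng, 38.2 FPKM at 3 ng and 42.1 FPKM in the control, with ratios of 1.04 (0.959 to 1.13) and 0.908 (0.840 to 0.981). alas2 thus amounted to 0.736 of the alas1 level at 6 ng (0.680 to 0.797) and 0.810 at 3 ng (0.753 to 0.871), against 0.308 in the control (0.279 to 0.341). The summed level of both genes was 75.8 FPKM at 6 ng, 69.1 FPKM at 3 ng and 55.0 FPKM in the control, so the sum differed less than alas2 alone.

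In the cytosolic steps, alad (chromosome 5, 54482325 to 54497319, minus strand) stood at 27.8 FPKM at 6 ng, 26.4 FPKM at 3 ng and 18.9 FPKM in the control. Its ratios were 1.47 (1.33 to 1.63) and 1.40 (1.27 to 1.54), among the smallest of the pathway. The next enzyme is encoded by a pair of genes in the zebrafish. hmbsb (ENSDARG00000055991, chromosome 15, 23511407 to 23529945, minus strand) had 25.0 FPKM at 6 ng, 27.3 FPKM at 3 ng and 10.7 FPKM in the control. hmbsa (ENSDARG00000008840, chromosome 5, 30518036 to 30534426, plus strand) had 21.7, 23.7 and 14.4 FPKM in the same libraries. At 6 ng the ratio was 2.34 for hmbsb (2.09 to 2.62) and 1.5 for hmbsa (1.35 to 1.68). At 3 ng it was 2.55 for hmbsb (2.29 to 2.84) and 1.64 for hmbsa (1.48 to 1.82).

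The order of the 2 hydroxymethylbilane synthase genes thus differed between libraries. hmbsb stood at 1.15 times hmbsa at 6 ng (1.05 to 1.27) and 1.15 times at 3 ng (1.06 to 1.25), against 0.742 times in the control (0.653 to 0.843). Reads of the 2 copies may not be divided with certainty where their sequences are alike. Their summed level was 46.7 FPKM at 6 ng, 50.9 FPKM at 3 ng and 25.1 FPKM in the control. As the counting tool is not given, it is not known how shared reads enter this sum. The model of hmbsb also overlaps 2 genes on the other strand. LOC110437746 had 55, 105 and 149 fragments in the same libraries, or 5.69, 7.61 and 33.5 per 100 of hmbsb. It was thus lower in the morphants while hmbsb was higher. The other, si:dkey-182i3.9, had 35, 53 and 20 fragments, or 3.62, 3.84 and 4.49 per 100 of hmbsb, and was higher in the morphants. Since use of strand is not given, reads of these overlaps cannot be divided between the genes with certainty.

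**Figure D2:**
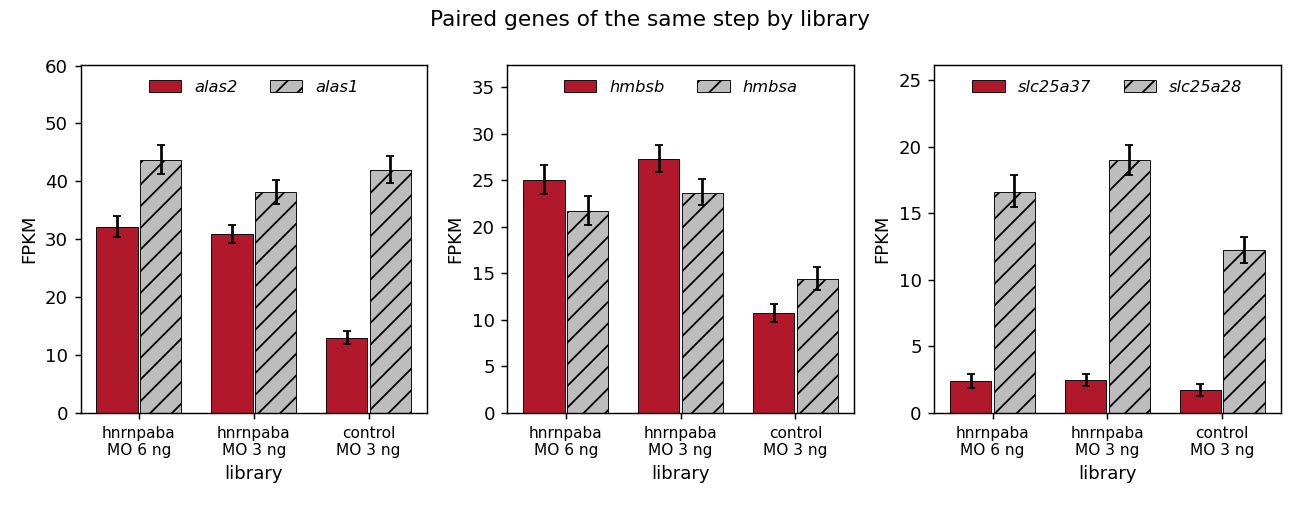
FPKM of 3 pairs of genes that encode the same step: alas2 and alas1, hmbsb and hmbsa, and slc25a37 and slc25a28, in the libraries of 6 ng, 3 ng and control morpholino. Bars are single libraries from 0 and error bars are 95% exact Poisson intervals; alas2 approaches alas1 in the morphants, hmbsb passes hmbsa, and slc25a37 stays far below slc25a28.

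uros (ENSDARG00000027491, chromosome 12, 48674381 to 48682751, plus strand), which closes the tetrapyrrole ring, stood at 17.0 FPKM at 6 ng, 14.7 FPKM at 3 ng and 10.1 FPKM in the control. Its ratios were 1.69 (1.45 to 1.98) and 1.46 (1.26 to 1.70). urod (ENSDARG00000006818, chromosome 2, 27556168 to 27575803, minus strand), which trims the side chains of the ring, was the member with the highest FPKM in each library. It had 80.9 FPKM at 6 ng, 74.3 FPKM at 3 ng and 38.7 FPKM in the control, with ratios of 2.09 (1.91 to 2.29) and 1.92 (1.76 to 2.10). These 2 neighbours in the pathway thus differed in ratio, that of uros being the smaller, though their intervals at 6 ng overlap.

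The last 3 enzymes work in the mitochondrion. cpox (ENSDARG00000062025, chromosome 8, 18601252 to 18613948, minus strand) stood at 30.8 FPKM at 6 ng, 28.5 FPKM at 3 ng and 13.7 FPKM in the control, and its ratios were 2.25 (2.01 to 2.52) and 2.08 (1.87 to 2.32). ppox (ENSDARG00000102167, chromosome 16, 42289076 to 42306597, minus strand) was scarcer, at 8.61, 7.22 and 3.20 FPKM in the same libraries. Its control value rested on 94 fragments, so its ratios of 2.69 (2.11 to 3.45) at 6 ng and 2.26 (1.78 to 2.89) at 3 ng are less precise. The model of ppox lies within the span of ENSDARG00000109582 on the other strand. That gene had 2.13, 2.33 and 5.32 fragments per 100 of ppox at 6 ng, at 3 ng and in the control. As for alas2, reads of this overlap cannot be divided with certainty. fech (ENSDARG00000003462, chromosome 21, 1647990 to 1670264, plus strand) stood at 11.6 FPKM at 6 ng, 8.98 FPKM at 3 ng and 3.83 FPKM in the control. At 6 ng it had the highest ratio of the pathway, 3.03 (2.34 to 3.96), and at 3 ng its ratio was 2.34 (1.81 to 3.06), from 80 control fragments. The interval of fech at 6 ng overlaps those of ppox, alas2, hmbsb and cpox, so its first place is not resolved.

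slc25a37 (ENSDARG00000073743, chromosome 8, 50190742 to 50217915, plus strand), the mitoferrin that supplies iron to red cell mitochondria, was the scarcest member. It stood at 2.37 FPKM at 6 ng, 2.46 FPKM at 3 ng and 1.71 FPKM in the control, from 84, 114 and 65 fragments. The ratio was 1.39 (0.994 to 1.95) at 6 ng, whose interval includes 1, and 1.44 (1.05 to 1.99) at 3 ng. Its level relative to alas2 was therefore lower in the morphants, at 0.0737 (0.0584 to 0.0920) and 0.0795 (0.0652 to 0.0962), against 0.131 in the control (0.1001 to 0.170). slc25a28, which encodes the more widely used mitoferrin-2, stood at 16.6 FPKM at 6 ng, 19.0 FPKM at 3 ng and 12.2 FPKM in the control. The quotient of the mitoferrins was alike in all 3 libraries, at 0.143, 0.130 and 0.139 with overlapping intervals.

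**Figure D3:**
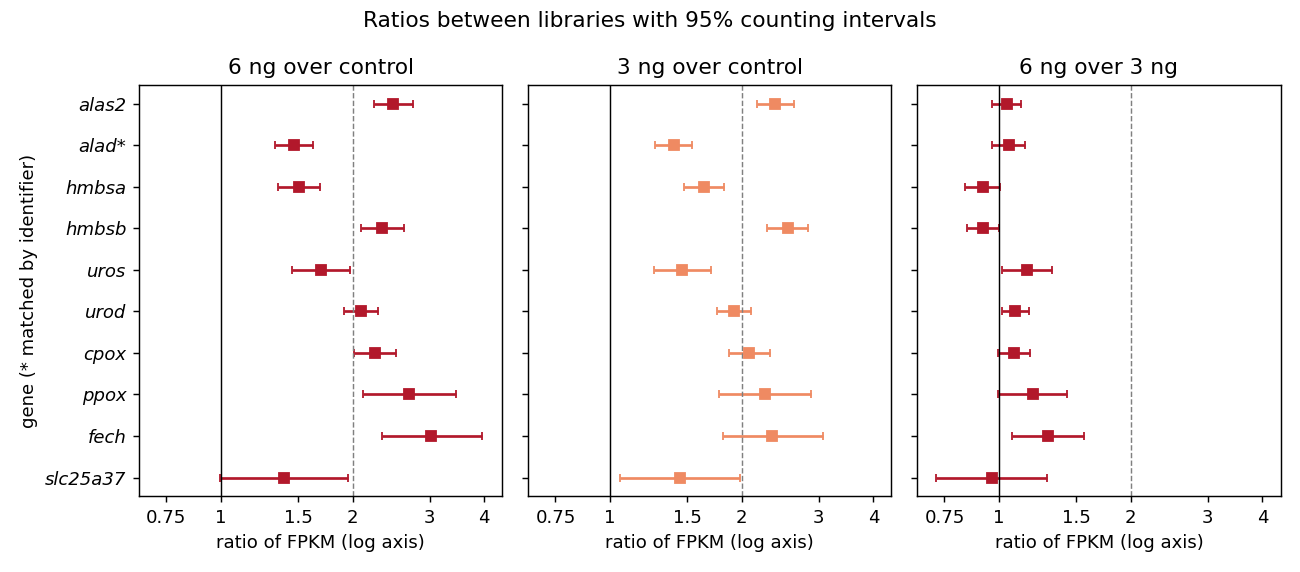
Ratios of FPKM on a log axis for the 9 genes and alad, with panels for 6 ng over control, 3 ng over control and 6 ng over 3 ng. Squares are ratios between single libraries, bars are 95% exact counting intervals, the solid line marks 1 and the dashed line marks 2; in the panel of 6 ng over 3 ng no gene lies near the dashed line.

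For counts of genes past 2-fold, differences were taken as log2 of FPKM + 1, which understates those of scarce genes, over the 16429 genes whose average reached 1 FPKM. At 6 ng, 6 of the 9 genes were at least 2-fold higher than the control (alas2, hmbsb, urod, cpox, ppox and fech), against 6.28% of all genes tested, and 0 of 9 were at least 2-fold lower, against 4.53%. At 3 ng the count was 4 of 9 (alas2, hmbsb, cpox and fech), against 3.68% of all genes, with 0 of 9 lower, against 2.2%. All 9 differences were positive at both doses, against 56.0% of all genes at 6 ng and 51.9% at 3 ng. The median of the 9 log2 differences was 1.11 at 6 ng and 0.97 at 3 ng, whereas the median of all genes tested was 0.08 and 0.02. Both doses share the control library, so these counts are not independent of each other. At 3 ng, cpox (1.01) and fech (1.05) lay just above the limit of 1 and ppox (0.97) and urod (0.92) just below it. After scaling each library to the same FPKM sum, 2 of 9 genes were past 2-fold at 3 ng, against 3.23% of all genes. Of all genes past 2-fold at 6 ng, 58.1% were higher, or 46.3% after the median of genes of like length was subtracted.

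Among the genes tested, few had a higher signed difference than the leading members; genes that were lower by as much are not counted in these shares. The log2 difference of alas2, 1.25 at 6 ng and 1.19 at 3 ng, was equalled or exceeded by 3.68% and 2.48% of the genes tested. For hmbsb the difference was 1.15 and 1.27, matched or passed by 4.44% and 2.16% of genes, and for fech it was 1.38 and 1.05, with 2.85% and 3.31%. For slc25a37, 33.1% of genes at 6 ng and 22.6% at 3 ng had a difference at least as high as its own.

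The 2 doses of hnrnpaba morpholino differed little from each other in these genes. None of the 9 was at least 2-fold higher at 6 ng than at 3 ng, against 1.11% of all genes, and none was at least 2-fold lower, against 0.992%. fech had the highest ratio, 1.29 (1.07 to 1.56), followed by ppox at 1.19 (0.995 to 1.43) and uros at 1.16 (1.02 to 1.32). urod stood at 1.09 (1.01 to 1.17) and hmbsb at 0.918 (0.845 to 0.997), and the intervals of ppox, alas2, hmbsa, cpox and slc25a37 included 1. alas2 stood at 1.04 (0.966 to 1.12), and its direction turned when the libraries were rescaled by their median ratio or when genes of like length were subtracted.

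The order of levels among the 9 genes also shifted between control and morphants. At 6 ng and at 3 ng the order was urod, alas2, cpox, hmbsb, hmbsa, uros, fech, ppox and slc25a37. In the control it was urod, hmbsa, cpox, alas2, hmbsb, uros, fech, ppox and slc25a37, so alas2 was at rank 2 in the morphants and rank 4 in the control. Neighbours whose counting intervals overlapped were alas2 and cpox at 6 ng. At 3 ng they were alas2 and cpox, cpox and hmbsb, and fech and ppox. In the control they were hmbsa and cpox, cpox and alas2, hmbsb and uros, and fech and ppox. The control interval of alas2 (11.9 to 14.1 FPKM) also overlaps that of hmbsa (13.2 to 15.7 FPKM). The change in rank of alas2 is therefore not resolved by these intervals. These are levels per length, so they can be compared between genes, but with no spread between pools.

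Embryonic globins, the proteins that take up this heme, were also higher in both morphant libraries. Their summed level over 10 genes was 2072 FPKM at 6 ng, 2236 FPKM at 3 ng and 924 FPKM in the control, ratios of 2.24 and 2.42. At least 2-fold higher were 7 of 10 globins at 6 ng, against 6.28% of all genes, and 6 of 10 at 3 ng, against 3.68%. The medians were 1.1 and 1.33. hbbe1.3 stood at 174, 224 and 60.1 FPKM, hbae1.1 at 37.5, 29.7 and 9.31 FPKM and hbae5 at 5.08, 3.93 and 0.978 FPKM. hbae5, which is among those counted at both doses, rested on 18 control fragments and reached the limit of 1 FPKM through its morphant values. Some of these genes are tandem copies, and their single values are uncertain.

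Dividing each member by the globin sum of its library shows how its ratio compares with that of the globins. alas2 amounted to 1.55 FPKM per 100 FPKM of globin at 6 ng and 1.38 at 3 ng, against 1.40 in the control, and hmbsb to 1.21 and 1.22, against 1.16. fech had 0.560 and 0.402, against 0.415, and ppox had 0.416 and 0.323, against 0.347. The intervals of the ppox ratios, 2.11 to 3.45 at 6 ng and 1.78 to 2.89 at 3 ng, include the globin ratios of 2.24 and 2.42. That of fech at 3 ng, 1.81 to 3.06, includes 2.42, while that at 6 ng, 2.34 to 3.96, lies above 2.24. The intervals of alas2, 2.24 to 2.74 at 6 ng and 2.16 to 2.63 at 3 ng, also include the globin ratios, at 6 ng only at the lower edge. Those of hmbsb, 2.09 to 2.62 and 2.29 to 2.84, include them too. A change of side between doses is therefore not resolved for ppox or alas2, and at 3 ng fech is not told apart from the globins. cpox had 1.49 and 1.28, against 1.48, and urod had 3.9 and 3.32, against 4.19. At 3 ng the intervals of cpox, 1.87 to 2.32, and urod, 1.76 to 2.10, lie below 2.42. Those at 6 ng, 2.01 to 2.52 and 1.91 to 2.29, include 2.24. The quotient of urod was lower in both morphant libraries, as were those of hmbsa, alad, uros and slc25a37. They were 1.05 and 1.06, against 1.56, for hmbsa and 1.34 and 1.18, against 2.05, for alad. For uros they were 0.821 and 0.657, against 1.09, and for slc25a37 they were 0.114 and 0.110, against 0.185.

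Blood transcription factors lay on both sides of the control. At least 2-fold higher were 5 of 13 measured genes at 6 ng, against 6.28% of all genes, and 2 of 13 at 3 ng, against 3.68%. At either dose 0 of 13 were lower, close to the shares of all genes, 4.53% at 6 ng and 2.2% at 3 ng. The log2 difference was positive in 10 of 13 at 6 ng, against 56.0% of all genes, and in 8 of 13 at 3 ng, against 51.9%. The count at 3 ng is near that share. The medians were 0.46 and 0.66. gata1a, the erythroid master regulator, had 4.12 FPKM at 6 ng, 4.78 FPKM at 3 ng and 1.41 FPKM in the control, ratios of 2.93 (2.05 to 4.26) and 3.40 (2.43 to 4.87). lmo2, an adaptor of the GATA and TAL1 complex, had 22.6, 16.2 and 8.01 FPKM. nfe2, a partner in erythroid and megakaryocyte gene control, had 1.71, 1.68 and 0.251 FPKM, the last from 6 fragments, and passed the limit of 1 FPKM through its morphant values. It is among the genes counted past 2-fold at both doses, and at 3 ng gata1a was the only other. Lower than the control were ldb1a, with ratios of 0.717 (0.674 to 0.763) and 0.841 (0.796 to 0.888), myb, with 0.855 (0.735 to 0.993) and 0.863 (0.751 to 0.993), and cbfb, with 0.883 (0.791 to 0.985) and 0.867 (0.783 to 0.960).

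Of 12 measured red cell membrane and late erythroid genes, 1 was at least 2-fold higher at 6 ng, near the 6.28% of all genes. At 3 ng it was 2 of 12, against 3.68%. At either dose 0 of 12 were lower, close to the shares of all genes, 4.53% at 6 ng and 2.2% at 3 ng. The log2 difference was positive in 11 of 12 at 6 ng, against 56.0% of all genes, and in 12 of 12 at 3 ng, against 51.9%. The medians were 0.40 and 0.47, below those of the heme genes. epb41b, which encodes the membrane skeleton protein 4.1, had 9.31 FPKM at 6 ng, 7.67 FPKM at 3 ng and 2.56 FPKM in the control, and hemgn, a nuclear regulator of erythroid growth, had 3.96, 5.15 and 1.85 FPKM. The anion exchanger gene slc4a1a (band 3) stood at 15.6, 15.7 and 11.7 FPKM, with ratios of 1.33 (1.2 to 1.49) and 1.34 (1.21 to 1.49). alas2 was accordingly 2.06 times slc4a1a at 6 ng (1.88 to 2.26) and 1.97 times at 3 ng (1.82 to 2.13), against 1.11 times in the control (0.987 to 1.25). rhag, a red cell ammonium channel gene, had ratios of 0.903 (0.779 to 1.05) and 1.08 (0.946 to 1.23). The summed level of the 14 late red cell genes in the table was 103 FPKM at 6 ng, 105 FPKM at 3 ng and 70.8 FPKM in the control. The globins and most of the measured late red cell genes were thus higher beside the heme genes, and their part in the result was not tested.

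Markers of other blood cells were scarce and went both ways. Of 13 macrophage and neutrophil genes, the average of 5 reached 1 FPKM. On log2 of FPKM + 1, 0 of 5 were 2-fold higher or lower at either dose. The shares of all genes were 6.28% higher and 4.53% lower at 6 ng, and 3.68% and 2.2% at 3 ng. This scale understates differences of such scarce genes. With a pseudocount of 0.1 FPKM 1 of 5 was 2-fold lower at 6 ng, against 7.13% of all genes. The medians on log2 of FPKM + 1 were 0.08 at 6 ng and -0.06 at 3 ng. The summed level of all 13 was 18.6 FPKM at 6 ng, 15.8 FPKM at 3 ng and 16.5 FPKM in the control. mpeg1.1 (macrophages) stood at 0.672, 0.492 and 0.520 FPKM, mpx (neutrophils) at 0.531, 0.180 and 0.402 FPKM, and none of the 13 was at 0 in any library. csf1ra, a receptor gene of macrophages and pigment cells, had 0.460 FPKM at 6 ng, 1.21 FPKM at 3 ng and 1.45 FPKM in the control, and its ratios were 0.317 (0.190 to 0.511) and 0.833 (0.601 to 1.15). The ratio of mpx at 3 ng was 0.448 (0.202 to 0.946). At 6 ng, il1b had 22 fragments, against 8 in the control, a ratio of 2.96 (1.27 to 7.69), and mmp13a had 35, against 2, a ratio of 18.8 (4.84 to 162).

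**Figure D4:**
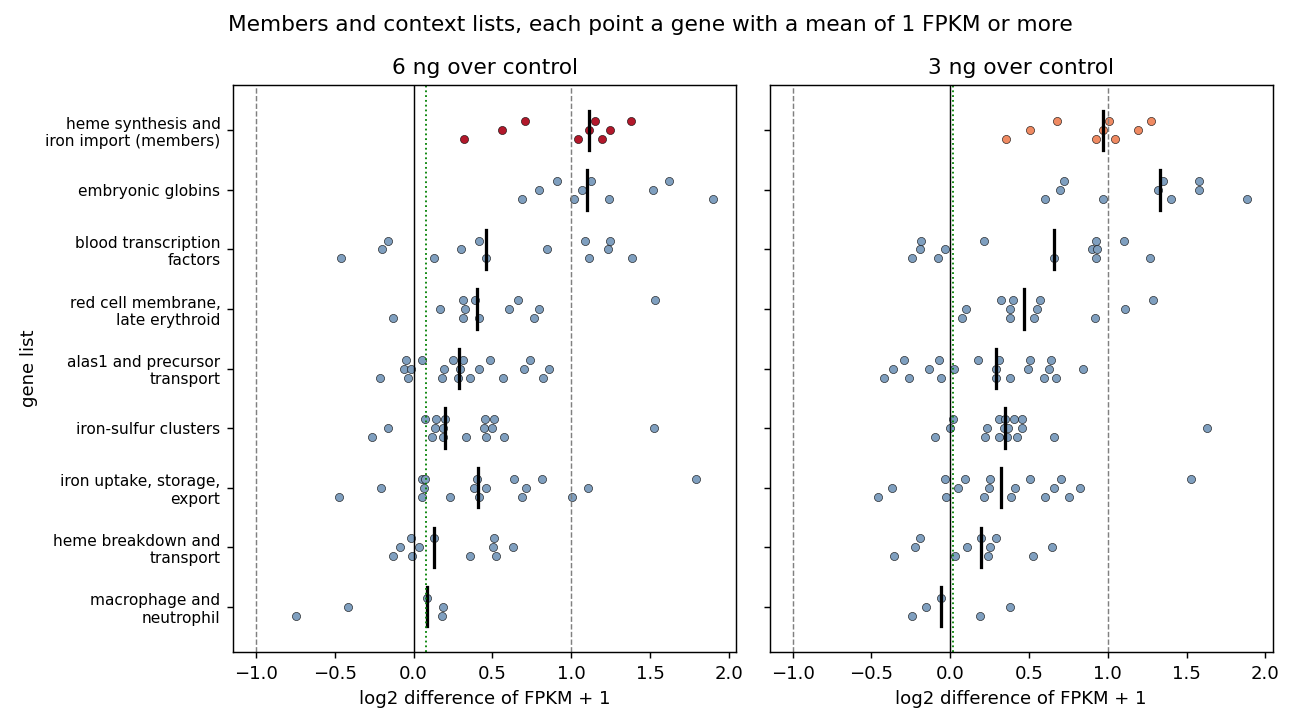
Differences in log2(FPKM + 1) for the 9 heme and iron import genes and for 8 context lists, at 6 ng over control (left) and 3 ng over control (right). Points are genes whose average reached 1 FPKM and black bars are list medians. Dashed lines mark 2-fold and the green dotted line is the median of all genes tested. The medians of the heme genes and globins lie farthest to the right, while single genes of other lists, such as fthl28, lie beyond every heme gene.

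Around the pathway, the carriers and regulators of heme precursors did not reach 2-fold. Among alas1 and 19 genes of mitochondrial transport and regulation, 0 of 20 were at least 2-fold higher or lower at either dose. Of all genes tested, 6.28% were higher and 4.53% lower at 6 ng, and 3.68% and 2.2% at 3 ng. A count of 0 in a list of this size is close to those shares. The medians were 0.29 at 6 ng and 0.29 at 3 ng. slc25a38a, which encodes a mitochondrial glycine carrier, stood at 1.72 FPKM at 6 ng, 0.864 FPKM at 3 ng and 1.23 FPKM in the control, from 35, 23 and 27 fragments. Its ratios to the control were 1.39 (0.820 to 2.40) and 0.700 (0.384 to 1.27), so no difference from the control was detectable for this gene at this depth. Its better covered paralog slc25a38b stood at 5.29 FPKM at 6 ng, 4.58 FPKM at 3 ng and 3.50 FPKM in the control, with ratios of 1.51 (1.27 to 1.81) and 1.31 (1.1 to 1.56). abcb10, an inner membrane transporter linked to mitoferrin-1 in mouse red cells, had ratios of 1.92 at 6 ng and 1.72 at 3 ng. tmem14ca, whose mouse counterpart aids porphyrin transport, had ratios of 1.69 and 1.82. Other genes of the list went the other way. clpxa had ratios of 0.848 (0.757 to 0.948) at 6 ng and 0.723 (0.648 to 0.806) at 3 ng. At 3 ng clpxb had 0.758 (0.670 to 0.857) and slc25a40 had 0.793 (0.656 to 0.959). The log2 difference was positive in 15 of 20 genes at 6 ng, against 56.0% of all genes, and in 13 of 20 at 3 ng, against 51.9%.

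Iron-sulfur cluster assembly draws on the same mitochondrial iron. At each dose 1 of its 17 measured genes was at least 2-fold higher and 0 were lower. Of all genes tested, 6.28% were higher and 4.53% lower at 6 ng, and 3.68% and 2.2% at 3 ng. The counts of this list are near those shares. The medians were 0.20 at 6 ng and 0.35 at 3 ng. The 1 gene, listed as si:ch211-207k7.4 and named hscb by its identifier, encodes a co-chaperone of cluster transfer. It stood at 5.36 FPKM at 6 ng, 5.85 FPKM at 3 ng and 1.21 FPKM in the control, with ratios of 4.43 (2.58 to 8.03) and 4.84 (2.87 to 8.63), from 17 control fragments. glrx5, a glutaredoxin of the same route, had ratios of 1.26 and 1.35.

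Among genes of iron uptake, storage and export, 3 of 18 measured genes were at least 2-fold higher at 6 ng, against 6.28% of all genes. At 3 ng it was 1 of 18, near the 3.68% of all genes. At either dose 0 of 18 were lower, close to the shares of all genes, 4.53% at 6 ng and 2.2% at 3 ng. The medians were 0.41 and 0.32. The ferritin-like gene fthl28, on chromosome 3, stood at 16.6 FPKM at 6 ng, 13.7 FPKM at 3 ng and 4.09 FPKM in the control, and its neighbour fthl27 at 247, 202 and 114 FPKM. Reads of such ferritin-like copies may be shared. steap3, the endosomal ferrireductase of red cell precursors in mouse, had 3.05, 2.07 and 1.02 FPKM, the last from 32 fragments. Its ratios were 2.99 (1.98 to 4.63) and 2.03 (1.33 to 3.16). Those of fthl27, 2.17 and 1.77, lay within these intervals. tfr2, another transferrin receptor gene, had 2.04, 1.72 and 0.729 FPKM, with ratios of 2.80 (1.74 to 4.63) and 2.37 (1.48 to 3.9). Its control value came from 25 fragments, and it reached the limit of 1 FPKM through its morphant values. On log2 of FPKM + 1 its differences were 0.81 and 0.66, so it is not among the genes counted past 2-fold. The transferrin receptor gene tfr1a had 17.4, 15.7 and 13.1 FPKM, ratios of 1.33 (1.19 to 1.49) and 1.2 (1.07 to 1.34). slc40a1, the iron exporter ferroportin, was the measured gene of this list farthest below the control, at 12.3 FPKM at 6 ng, 12.4 FPKM at 3 ng and 17.4 FPKM in the control, with ratios of 0.706 (0.637 to 0.781) and 0.713 (0.649 to 0.783).

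Genes of heme breakdown stayed below 2-fold. Of 11 measured genes of heme breakdown, transport and sensing, 0 were at least 2-fold higher or lower at either dose. The shares of all genes were 6.28% higher and 4.53% lower at 6 ng, and 3.68% and 2.2% at 3 ng. A count of 0 among 11 is close to those shares. The medians were 0.13 at 6 ng and 0.19 at 3 ng. hmox1a, the inducible heme oxygenase, stood at 4.67 FPKM at 6 ng, 5.87 FPKM at 3 ng and 5.01 FPKM in the control. Its ratios of 0.932 (0.715 to 1.21) and 1.17 (0.929 to 1.48) both had intervals that include 1.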

How the data were processed

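The authors deposited 1 table of FPKM values per gene with a column for each of the 3 libraries, and 0 columns of values were left unused. Per the labels' protocols, libraries were sequenced on a BGISEQ-500 and mapped to a zebrafish genome and its genes; the sources used here do not give the aligner, counting tool, build, annotation or strandedness. Positions are as deposited. Fragments were recovered from FPKM with the shortest model length that made them whole in all 3 libraries (tolerance at most 0.05 fragments), for 25958 of 25961 genes. Where that length is a fraction of the true one, intervals are too wide. The recovery and the 2-fold rule were tested on simulated data. The simulation was built with the recovered lengths, so it cannot show whether these are a fraction of the true ones. Only well covered genes were given a change in it. Ratios are FPKM without a pseudocount, with 95% Clopper-Pearson intervals conditional on both libraries. Counts use a pseudocount of 1 FPKM and a mean of 1 FPKM or more. There were 8 context lists with 131 symbols: 107 matched by the table's symbol, 18 by a table of gene names, 1 by RefSeq, and 5 were not matched. All 10 genes of the pathway were named. From each list, up to 3 genes past 2-fold at either dose were named, with 8 genes named whatever their values, and genes given beyond these as examples were chosen after their values were seen. The members and lists were chosen with earlier results of these data known. Alternatives were the pseudocount, the filter and the scaling. Promoter and protein sequences were not analysed here. Python 3.11.15, pandas 2.3.3, numpy 2.4.6 and scipy 1.17.1 were used.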

Additional observations from a re-analysis of the deposited data

How the results depend on the processing

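Every member stayed above the control at both doses under each alternative that kept it in the count, with log2 differences between 0.14 and 1.57 at 6 ng and between 0.15 and 1.34 at 3 ng. The number of members past 2-fold depends on the pseudocount. With 5 FPKM it was 1 of 9 at 6 ng, against 1.91% of all genes, and 1 of 9 at 3 ng, against 0.834%. The medians were then 0.91 and 0.66. With equal sums of FPKM, and with genes of like length subtracted (a setting chosen after seeing the data), 2 of 9 were past 2-fold at 3 ng. Of all genes, 3.23% and 2.99% were higher under these settings. At 6 ng between 4 and 6 members were past 2-fold under the alternatives other than the pseudocount of 5 FPKM. Under those alternatives 4.57% to 9.83% of all genes were higher. Counting alad with the members, also chosen after seeing the data, gave medians of 1.08 at 6 ng and 0.95 at 3 ng. A filter of 5 FPKM leaves out slc25a37. The numbers of all genes higher and lower were 1615 and 1171 at 6 ng, 1004 and 750 at 3 ng, and 426 and 365 between the doses with a pseudocount of 0.1 FPKM. With 5 FPKM they were 313 and 215, 137 and 79, and 33 and 20. With the filter of 5 FPKM they were 540 and 391, 278 and 171, and 62 and 75, against 1032 and 745, 604 and 361, and 183 and 163 as reported. No paired analysis was possible because each group has 1 library. Depth limits slc25a37, fech and ppox, which had 65, 80 and 94 control fragments.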

Other observations

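Genes with a pattern most like that of alas2 were sought among 6200 others with a mean of 10 FPKM or more, by the Euclidean distance between the 2 log2 differences from the control, which share the control library. The 5 nearest were c10h21orf59 (also cfap298), s1pr5a, zgc:163057, hax1 and hoxc13a, at distances of 0.036 to 0.070, and 11 genes lay within 0.1. zgc:163057, which the table of gene names lists as the embryonic globin gene hbae4, stood at 12.7 FPKM at 6 ng, 12.7 FPKM at 3 ng and 4.78 FPKM in the control. Around slc25a37, 254 genes lay within 0.1, and the nearest 5 included sars, rassf7a, atp1b3b and tmem161a. slc25a37 itself is far below 10 FPKM, so the added 1 FPKM shrinks its difference more than theirs. At 3 ng that difference was 0.35 with 1 FPKM and 0.50 with 0.1 FPKM, so these genes match a reduced difference and not its ratio.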
